A study of Mus musculus with 6 samples.

Results

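A set of 10 genes of the core and primed pluripotency programme, of 23353 gene symbols listed, was followed in day 4 embryoid bodies (EBs), aggregates of differentiating stem cells grown in suspension. They were chosen by symbol: the transcription factors Pou5f1, Sox2 and Sall4, the chromatin-associated proteins Utf1 and Dppa4, the RNA-binding proteins Lin28a, Lin28b, Dppa5a and L1td1, and the epiblast POU factor Pou3f1. EBs of the parental W9.5 mouse embryonic stem cells (mESCs; wildtype) were compared with EBs of clone 14, a W9.5 derivative with frameshift deletions in both copies of Evx1 (EVX1-Δfs). Both were kept in LIF and then grown for 4 days in serum without it, with 3 libraries per genotype. The replicates were separate differentiations, each begun on its own day with both genotypes side by side. EVX1-Δfs is represented by 1 edited clone, so effects of the edit and of the clone cannot be told apart.

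Pluripotent cells of the mouse pass from a naive state before implantation to a primed epiblast state just after it, and the epiblast then leaves pluripotency as cells enter the primitive streak. POU5F1 (OCT4) and SOX2 bind DNA together and hold the network in both states, whereas the naive factors around them are switched off first. The LIN28 proteins bind precursors of the let-7 microRNAs and block their maturation, and let-7 in turn targets Lin28 transcripts. At gastrulation SOX2 is retained in the anterior epiblast that gives rise to neurectoderm, while it falls in nascent mesoderm.

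The edit and the let-7 relation are shown first as sequence, because the genotype rests on the former and the Lin28 pair on the latter. The guide cut within coding sequence of exon 2 of Evx1 at chr6:52265847-52265866 on the plus strand (NCBIM37, the assembly of mm9), and is printed with its PAM, the bases Cas9 requires beside the target, in capitals.
Evx1 guide: ccagatgcgccgataccgcaCGG

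Of 10 mature let-7 microRNAs in the RefSeq table (GRCm38.p6), 9 shared the seed GAGGUAG, bases 2 to 8. A pair is printed with the seed in capitals. The 3′ UTRs of the pluripotency genes (the longest annotated per gene, GENCODE vM1) were searched on the transcript strand for its complement CTACCTC. This match was present in 3 of the 10 genes, Lin28b with 4 copies, Lin28a with 2 and Sall4 with 1, and in 8.81% of the 19915 genes with an annotated 3′ UTR. Long UTRs hold more matches by length alone: those of Lin28b and Lin28a span 4445 and 2775 bases, against a median of 893 over all genes. The sites followed by an A in these genes are printed with the match in capitals. They lie at chr4:133561099-133561126 and chr4:133560461-133560488 (Lin28a), chr10:45100823-45100850 (Lin28b) and chr2:168574435-168574462 (Sall4), all on the minus strand of NCBIM37.
mmu-let-7a-5p: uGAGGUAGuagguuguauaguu
mmu-let-7g-5p: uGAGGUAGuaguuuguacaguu
Lin28a 3′ UTR site at position 909: gcacagcctgttgaaCTACCTCattttt
Lin28a 3′ UTR site at position 1547: gagatcgccacaaacCTACCTCactgtg
Lin28b 3′ UTR site at position 36: acccgggcgggaagtCTACCTCatgcaa
Sall4 3′ UTR site at position 1082: agggctttaatttatCTACCTCaattat

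The libraries held 7597879 to 9914471 reads assigned to genes. Values are normalized counts, that is reads per gene divided by 1 factor per library. Evx1 itself ranged from 2176 to 2400 normalized counts in wildtype EBs and from 2012 to 2516 in EVX1-Δfs EBs, and transcript counts do not show the frameshift. T, a marker of the primitive streak and nascent mesoderm, reached 2759 to 5299 in every library. Between 1.87% and 4.95% of a library came from Rn45s, the precursor of ribosomal RNA. This share was unequal within both genotypes and is given beside the results it moves with.

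All 10 genes passed the filter on low values (at least 10 normalized counts in at least 3 libraries), and 0 of the 10 were called different between genotypes at an adjusted p under 0.05 (limma with Benjamini-Hochberg adjustment over 13136 genes). Of all genes tested, 5.02% were called, 2.08% as higher and 2.95% as lower in EVX1-Δfs EBs (53.2% of calls were higher with upper-quartile scaling, 41.4% here). At an unadjusted p under 0.05 there were 2 of 10 (Sox2 and Lin28b) against 23.1% of all genes, and Sox2 was called by both DESeq2 and edgeR on the recovered reads, where 6.89% and 5.22% of genes were called. Sox2 was also called by limma with the GC and length trends removed, a fit that called 2.15% of genes, and 0 of the 10 were called with the replicate block, which called 1.69%. The log2 fold changes of the 10 genes, EVX1-Δfs over wildtype on the log2(normalized count + 1) scale, ran from -0.19 (Dppa5a) to 0.41 (Sox2) with a median of 0.06, beside a median of 0.00 over all genes. The 95% intervals of the folds lay between 0.748 and 1.59 for every one of them, so a doubling or a halving of any was outside its interval. The 3 libraries of each genotype did not overlap for 3 of the 10 genes, Sox2 and Lin28b (higher in EVX1-Δfs) and Dppa5a (lower), against 26.9% of all genes tested (12.2% higher and 14.7% lower).

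**Figure D1:**
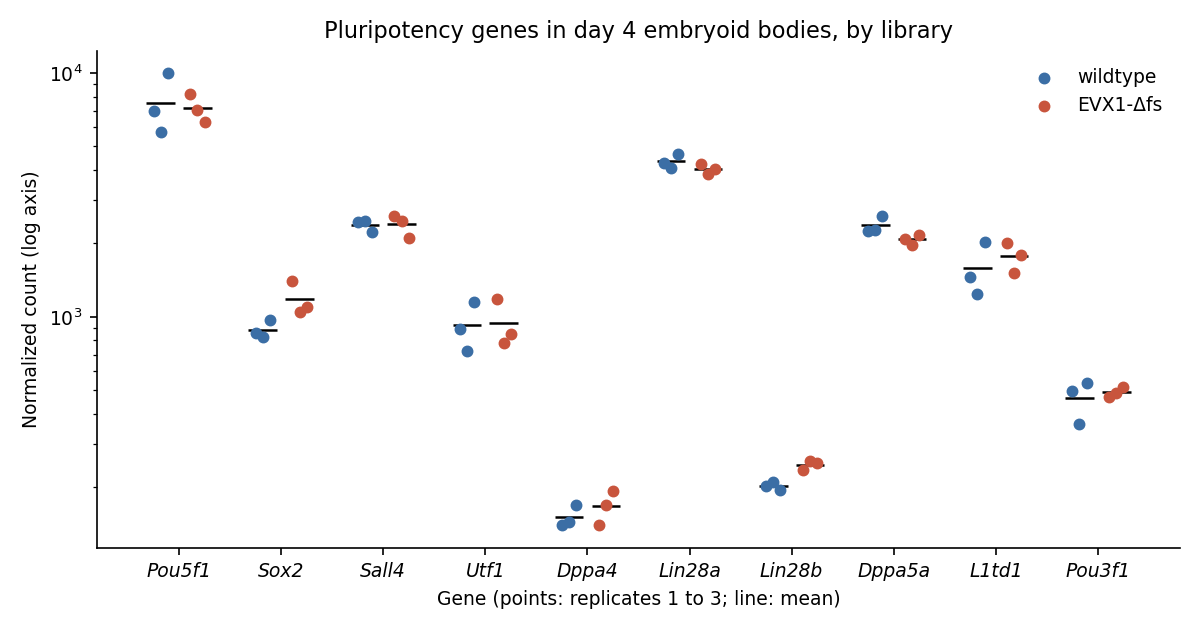
Normalized counts (log axis) of the 10 pluripotency genes in each library, with wildtype in blue, EVX1-Δfs in red and a black line at each genotype's mean (3 libraries each). The genotypes separate without overlap for Sox2, Lin28b and Dppa5a, whereas the wildtype points of Pou5f1 span 5725 to 9960 and enclose all 3 EVX1-Δfs points.

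**Figure D2:**
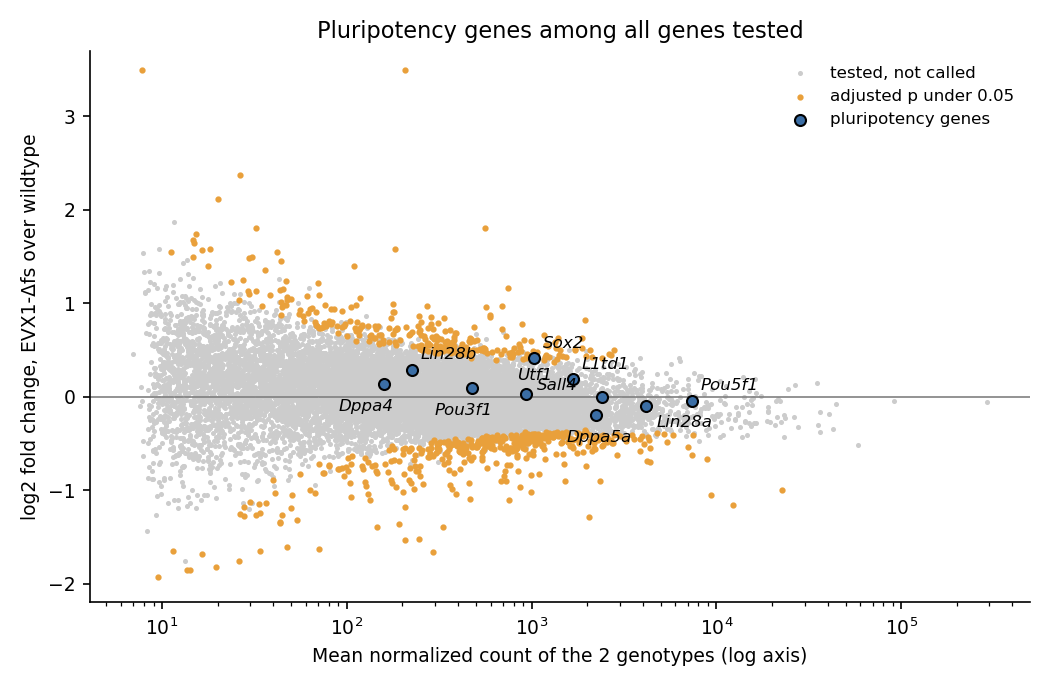
The log2 fold change of each of 13136 tested genes against its mean normalized count (log axis), with genes called at an adjusted p under 0.05 in orange and the 10 pluripotency genes in blue. Sox2, at 0.41, lies at the edge of the called genes and the other 9 genes lie within the uncalled cloud, between -0.19 and 0.29.

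Of the core transcription factors, Pou5f1, the POU factor without which the pluripotent epiblast is not maintained (chr17:35642982-35647721, plus strand; NCBIM37 here and for the genes that follow), was the most abundant by read count. It had 6948, 5725 and 9960 normalized counts in wildtype replicates 1 to 3, against 8164, 7056 and 6281 in the EVX1-Δfs libraries in the same order. Wildtype held both the highest and the lowest library. The means were 7544 ± 2179 and 7167 ± 946 (SD, n = 3), and the log2 fold change was -0.04 ± 0.16 (SE; limma adjusted p of 0.896), with a fold of 0.970 and a 95% interval from 0.775 to 1.21. The value turned from below 0 to 0.08 when trends with GC content and length were removed (limma adjusted p of 0.836). Leaving out 1 library at a time, it ranged from -0.22 without wildtype replicate 2 to 0.18 without wildtype replicate 3, and was also above 0 (0.05) without EVX1-Δfs replicate 3.

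Sox2 (chr3:34548927-34551383, plus strand), the HMG-box partner of POU5F1, is a single-exon gene that lies within the lincRNA Sox2ot without sharing exon bases with it. It had 859, 823 and 969 normalized counts in wildtype replicates 1 to 3, and 1406, 1045 and 1093 in EVX1-Δfs replicates 1 to 3. Every EVX1-Δfs library lay above every wildtype library, with EVX1-Δfs replicate 1 apart from the others. The log2 fold change was 0.41 ± 0.12 (SE), a fold of 1.33 with a 95% interval from 1.11 to 1.59. The limma adjusted p was 0.0559, just outside the threshold, and 0.0930 once replicate number was a block. It was 0.0346 in DESeq2, 0.0423 in edgeR and 0.0308 in limma with the GC and length trends removed, all without the block. With the block it was 0.099 in DESeq2 and 0.0509 in limma with the trends removed. The call thus depended on the setting, and no fit with the block made it. Over the 6 limma fits without 1 library the log2 fold change ran from 0.28 (without EVX1-Δfs replicate 1, adjusted p of 0.257) to 0.49 (without EVX1-Δfs replicate 2, adjusted p of 0.0502), and the gene was called in 1 of them, without wildtype replicate 3 (adjusted p of 0.0401).

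Sall4 (chr2:168573832-168593443, minus strand), a zinc finger factor that works with POU5F1 and NANOG and recruits the NuRD repressor complex, was the most even of the 10 between genotypes. It had 2458, 2475 and 2229 normalized counts in wildtype, against 2601, 2472 and 2113 in EVX1-Δfs replicates 1 to 3. The EVX1-Δfs libraries enclosed those of wildtype. Its log2 fold change was 0.00 ± 0.11 (SE; limma adjusted p of 0.999), with a fold interval from 0.851 to 1.18. Exons of Sall4 share 526 bases with the lincRNA Gm14261 on the opposite strand, so reads there are uncertain if strand was not used in counting.

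The ratio of Sox2 to Pou5f1 within a library does not depend on how libraries are scaled, and was examined after the values had been seen. Sox2 stood at 0.124, 0.144 and 0.0973 of the Pou5f1 count in wildtype replicates 1 to 3 and at 0.172, 0.148 and 0.174 in EVX1-Δfs replicates 1 to 3. The ratio was higher in each EVX1-Δfs library than in each wildtype library, by 0.45 on the log2 scale (1.37-fold). The exact permutation test (two-sided) gave p = 0.1, the smallest that 3 against 3 libraries allow. With libraries paired by replicate number the ratio was higher in EVX1-Δfs in 3 of 3 pairs, and the exact paired permutation test gave p = 0.25, the smallest that 3 pairs allow. With the GC and length trends removed the difference was 0.41.

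Of the chromatin-associated proteins, Utf1 (chr7:147129688-147131011, plus strand), which is restricted to pluripotent and germ cells, had 891, 726 and 1150 normalized counts in wildtype, against 1188, 780 and 848 in EVX1-Δfs replicates 1 to 3. The libraries of both genotypes spread over the same range, with a coefficient of variation of 23.2% in each. Its log2 fold change was 0.03 ± 0.16 (SE; limma adjusted p of 0.938; fold interval from 0.815 to 1.27). Utf1 has the highest exonic GC content of the 10, 63.5%, and its log2 fold change was 0.23 once GC and length trends were removed (limma adjusted p of 0.424).

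Dppa4 (chr16:48283848-48294405, plus strand), a SAP-domain protein that pairs with DPPA2 at developmental promoters, was low: 140, 143 and 169 normalized counts in wildtype, against 140, 169 and 192 in EVX1-Δfs replicates 1 to 3. The genotypes overlapped, with EVX1-Δfs replicate 3 the highest. A log2 fold change of 0.14 ± 0.16 (SE) had a limma adjusted p of 0.648 and a fold interval from 0.871 to 1.40. It rested on 146 to 202 reads per library, where counting alone gives an error of up to 8.28%.

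Among the RNA-binding proteins, Lin28a (chr4:133559245-133574756, minus strand) was the second most abundant gene by read count, at 4288, 4070 and 4642 normalized counts in wildtype, against 4228, 3847 and 4030 in EVX1-Δfs replicates 1 to 3. It also varied little, with coefficients of variation of 6.66% and 4.73%. EVX1-Δfs replicate 1 lay within the wildtype range and the other 2 lay below it. Its log2 fold change was -0.10 ± 0.11 (SE; limma adjusted p of 0.620; fold interval from 0.795 to 1.09). Exons of Lin28a share 103 bases with the lincRNA Gm13061 on the opposite strand.

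Lin28b (chr10:45096426-45206201, minus strand), its paralog with the 4 let-7 matches printed in part above, had 203, 211 and 195 normalized counts in wildtype, against 235, 256 and 252 in EVX1-Δfs replicates 1 to 3. All EVX1-Δfs libraries were above all wildtype libraries. Lin28b had a log2 fold change of 0.29 ± 0.14 (SE), a fold of 1.22 with an interval from 1.00 to 1.49, at an unadjusted p of 0.0497 and a limma adjusted p of 0.216. Lin28b has the lowest exonic GC content of the 10, 40.2%, and the longest exons (9065 bases). Over 12948 genes the fold changes fell with GC content (Spearman's rho of -0.460; genes are not independent replicates). With the GC and length trends removed the log2 fold change of Lin28b was -0.02 (limma adjusted p of 0.961).

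The Lin28b to Lin28a ratio of normalized counts was 0.0473, 0.0518 and 0.0419 in wildtype and 0.0556, 0.0665 and 0.0624 in EVX1-Δfs replicates 1 to 3. It was 1.31-fold higher in EVX1-Δfs without overlap (two-sided exact permutation p = 0.1, and 0.25 when paired by replicate number, each the smallest possible here; a ratio chosen after the values were seen). The log2 difference of 0.39 shrank to 0.06 with the GC and length trends removed.

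Dppa5a (chr9:78214859-78215984, minus strand), which encodes a KH-domain protein of embryonic stem cells and germ cells, was the lowest of the 10 by fold change. It had 2246, 2275 and 2599 normalized counts in wildtype, against 2091, 1972 and 2160 in EVX1-Δfs replicates 1 to 3. Every EVX1-Δfs library lay below every wildtype library, although the closest pair differed little (2160 and 2246). The log2 fold change was -0.19 ± 0.11 (SE; limma adjusted p of 0.300), a fold of 0.875 with an interval from 0.748 to 1.02, and it was below 0 in all 18 alternative settings (-0.245 to -0.125).

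L1td1 (chr4:98393425-98405171, plus strand), an RNA-binding protein derived from the first open reading frame of a LINE-1 element, had 1460, 1243 and 2030 normalized counts in wildtype, against 2004, 1508 and 1792 in EVX1-Δfs replicates 1 to 3. Wildtype replicate 3 was the highest and wildtype replicate 2 the lowest of all 6 libraries. Its log2 fold change was 0.18 ± 0.15 (SE; limma adjusted p of 0.469; fold interval from 0.923 to 1.40), and ran from 0.03 without wildtype replicate 2 to 0.38 without wildtype replicate 3 (limma adjusted p of 0.935 and 0.0913).

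Pou3f1 (OCT6; chr4:124334896-124337899, plus strand), a POU factor that rises as the epiblast becomes primed and is later used in neural lineages, had 497, 364 and 534 normalized counts in wildtype, against 467, 488 and 516 in EVX1-Δfs replicates 1 to 3. The EVX1-Δfs libraries lay within the wildtype range, which wildtype replicate 2 extended downward. Its log2 fold change was 0.10 ± 0.14 (SE; limma adjusted p of 0.724; fold interval from 0.876 to 1.30), 0.29 with GC and length trends removed (limma adjusted p of 0.264), and -0.07 without wildtype replicate 2. In GENCODE vM1 a pseudogene model of the same name covers 3003 exonic bases of Pou3f1 on the same strand, and how the authors' counting treated it is not given in the sources used here.

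**Figure D3:**
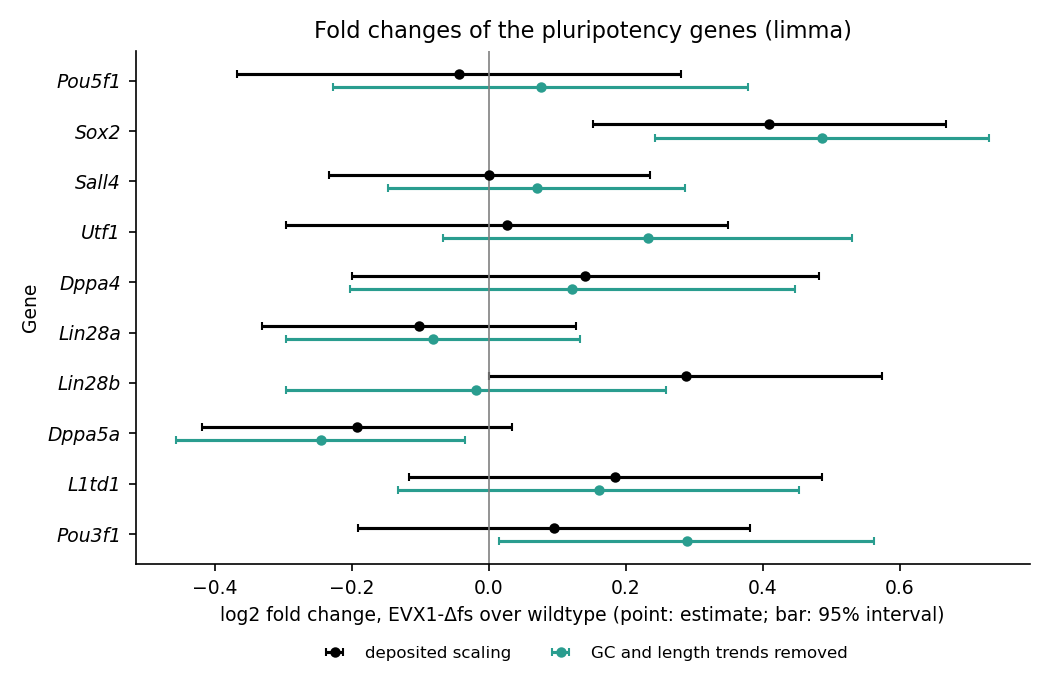
The log2 fold change of each gene with its 95% interval from limma, in black with the deposited scaling and in green after removal of each library's trends with GC content and length. Only Sox2 and Lin28b have a black interval above 0 (from 0.15 to 0.67, and from 0.00 to 0.57), and the green estimate of Lin28b is -0.02. The green intervals exclude 0 for Sox2 (0.24 to 0.73), Pou3f1 (0.01 to 0.56) and Dppa5a (-0.46 to -0.03). Of these, only Sox2 is called in that fit (limma adjusted p of 0.0308, 0.264 and 0.216 in this order).

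Levels were compared between genes per kilobase of annotated exon. In wildtype EBs the order of these levels was Dppa5a (3834 ± 317 normalized counts per kilobase, SD, n = 3), Pou5f1 (3344 ± 966), Lin28a (1236 ± 82.4), Utf1 (751 ± 174), L1td1 (497 ± 128), Sall4 (431 ± 24.8), Sox2 (360 ± 30.9), Pou3f1 (155 ± 29.8), Dppa4 (98.3 ± 10.6) and Lin28b (22.4 ± 0.880). Neighbours in this order were compared within each library. Dppa5a was above Pou5f1 in 4 of 6 libraries, L1td1 above Sall4 in 5 and Sall4 above Sox2 in 4. The order of these pairs thus changed between libraries, for Sall4 and Sox2 only within EVX1-Δfs. In wildtype the ranges of Sall4 and Sox2 were apart, with Sall4 above. The ranges of Utf1 and L1td1 overlapped, as did those of Pou3f1 and Dppa4 over all 6 libraries, yet Utf1 was above L1td1 in each of the 6 (1.22-fold to 1.58-fold) and Pou3f1 above Dppa4 in each (1.30-fold to 1.82-fold). In EVX1-Δfs EBs the level of Sox2 per kilobase was 481 ± 79.7 and that of Sall4 was 433 ± 45.7, and over all 6 libraries their ranges overlapped. Per kilobase, Lin28b stood at 0.0182 of Lin28a in wildtype and at 0.0238 in EVX1-Δfs EBs. These levels depend on the exon model, which for Pou5f1 includes several alternative transcripts.

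The 10 genes did not vary alike between libraries of 1 genotype. Wildtype replicate 3 was the highest wildtype library for 8 of the 10 genes and wildtype replicate 2 the lowest for 6, and EVX1-Δfs replicate 1 was the highest of its genotype for 6. Sall4 and Lin28b were lowest in wildtype replicate 3, opposite to Pou5f1, Utf1 and L1td1. Summed over the 10 genes, the share of all normalized counts was 0.222%, 0.206% and 0.255% in wildtype and 0.257%, 0.229% and 0.231% in EVX1-Δfs replicates 1 to 3, which overlap. The Rn45s share was 3.51%, 1.87% and 4.28% in wildtype and 4.95%, 2.93% and 2.09% in EVX1-Δfs replicates 1 to 3. Within each genotype the libraries took the same order for Rn45s as for Pou5f1, and what part ribosomal RNA carry-over has in the spread of Pou5f1 was not tested.

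**Figure D4:**
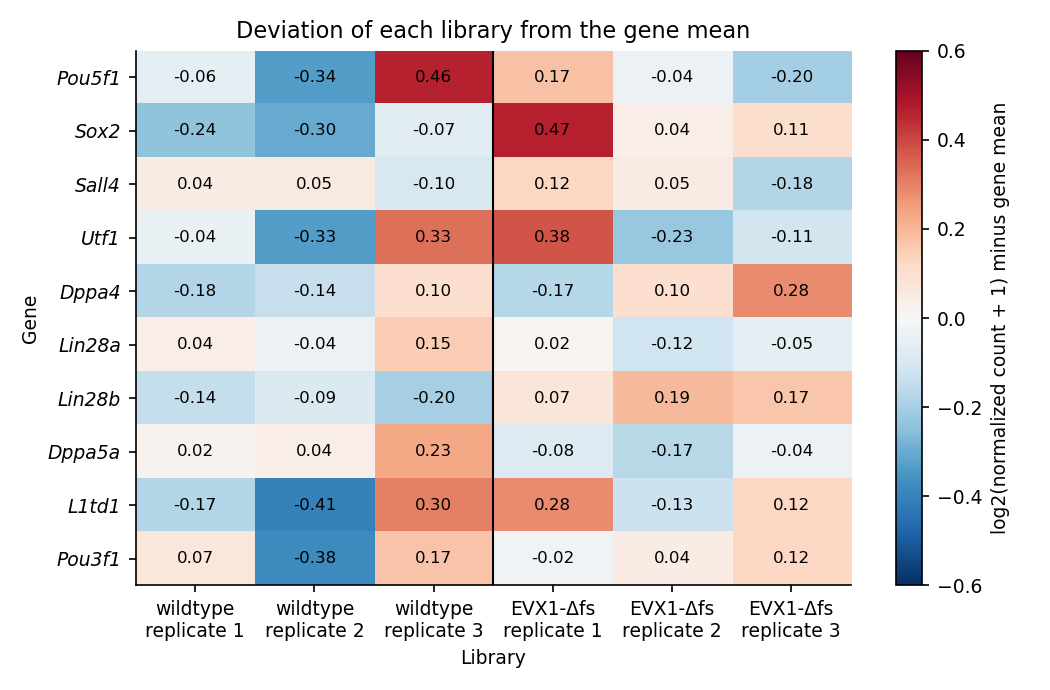
Deviation of each library from the gene's mean over 6 libraries, on the log2(normalized count + 1) scale, for the 10 genes in rows and the libraries in columns. Wildtype replicate 3 is 0.46 above the mean for Pou5f1, 0.33 for Utf1 and 0.30 for L1td1, wildtype replicate 2 is 0.34, 0.33 and 0.41 below it, and the same libraries differ less for Lin28a, Sall4 and Lin28b.

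As a description of likeness over the 6 libraries, the genes whose log2 values followed Pou5f1 most closely among 10629 averaging 50 or more normalized counts were Cradd, Lhfpl4 and Kat5 (Pearson's r of 0.988, 0.984 and 0.981). All share the libraries and their scaling, and with 6 points high values of r arise in so many genes. Of the other pluripotency genes, Utf1 came closest (0.874) and L1td1 and Lin28a followed (0.788 and 0.748), whereas Sox2 had an r of 0.363, Sall4 of -0.0617 and Lin28b of -0.353.

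The surrounding network was described with lists from general knowledge. Of 16 naive pluripotency genes, all tested, 2 were called higher and 1 lower, with a median log2 fold change of 0.32. DESeq2 and edgeR each called 6 of the 16, and 7 had an unadjusted p under 0.05 in limma. Over all genes tested, limma called 5.02%, DESeq2 6.89% and edgeR 5.22%, and 23.1% had an unadjusted p under 0.05 in limma. These shares are the background for the counts of every list and marker set that follows. Tfcp2l1, a naive transcription factor, averaged 54.7 ± 5.38 normalized counts in wildtype, against 94.97 ± 8.48 in EVX1-Δfs (SD, n = 3), and rose by 0.79 on the log2 scale (limma adjusted p of 0.0265). Fgf4, the epiblast FGF that POU5F1 and SOX2 activate together, rose from 153 ± 8.48 to 233 ± 20.9 (SD, n = 3; 0.60 on the log2 scale, adjusted p by limma of 0.0221). Tbx3, which belongs to the naive network but is also expressed in early mesoderm and endoderm, fell from 1864 ± 362 to 1117 ± 50.8 (SD, n = 3; log2 fold change -0.72, limma adjusted p 0.00178), and is among the genes the study itself names on these samples. Under the replicate block Tfcp2l1 and Fgf4 had limma adjusted p of 0.0574 and 0.0579, and Tbx3 kept its call. With the GC and length trends removed Tfcp2l1 was not called (limma adjusted p of 0.0766). In that fit Fgf4 and Tbx3 kept their calls and Esrrb, also on this list, was called higher (limma adjusted p of 0.0175, 0.00316 and 0.0352).

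Of 25 primed and formative epiblast genes, all tested, 2 were called higher and 2 lower, with a median log2 fold change of 0.16. Fgf5, the classic marker of the primed epiblast, rose from 375 ± 104 to 562 ± 65.7 normalized counts (SD, n = 3; log2 fold change 0.61, limma adjusted p 0.0293). Sox3, the SOXB1 relative of Sox2, fell from 118 ± 15.2 to 70.6 ± 19.1 (SD, n = 3; log2 fold change -0.77, limma adjusted p 0.0373), opposite in sign to Sox2. Mycn fell as well (log2 fold change -0.51, limma adjusted p 0.0372). With the replicate block 1 of these 4 calls was left, Mycn (limma adjusted p of 0.0495), and Fgf5 and Sox3 had adjusted p of 0.0624 and 0.0864. With the GC and length trends removed none of the 4 was called (limma adjusted p from 0.0574 to 0.160), although the log2 fold changes of Fgf5, Sox3 and Mycn were still 0.56, -0.51 and -0.40. DESeq2 and edgeR each called 4 of the 25, and 11 of the 25 had an unadjusted p under 0.05 in the unblocked limma fit.

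Of 6 genes listed as targets of POU5F1 and SOX2, 2 were called, both higher. The list does not separate genes that these factors activate from genes that they repress. The 2 were Fgf4, given above, and Spp1, which encodes osteopontin. Spp1 rose from 172 ± 7.61 to 278 ± 26.9 normalized counts (SD, n = 3). Its log2 fold change was 0.69 (limma adjusted p 0.00890, 0.0330 under the block). All 6 values were above 0, as were 6575 of all 13136 genes tested. They ran from 0.04 to 0.76, with a median of 0.53 against 0.00 over all genes. DESeq2 and edgeR each called 4 of the 6. Nanog, one of the 6, was picked by the study on these samples, and the list shares Nanog, Fgf4 and Zfp42 with the naive list.

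Paralogs of the 10 genes were mostly low or uncalled. Of 12 other POU genes 4 passed the filter and 0 were called (1 at an unadjusted p under 0.05, 0 in DESeq2 and edgeR). The most abundant, Pou2f1 and Pou6f1, had log2 fold changes of 0.29 and 0.12. Of 7 SOXB and SOXC genes 4 were tested and Sox3 was the 1 called. Sox12 and Sox11 had log2 fold changes of -0.30 and 0.10 (limma adjusted p of 0.146 and 0.707), and Sox1 stayed between 0.934 and 4.76 normalized counts. Of the 3 SALL paralogs 0 were called (0 at an unadjusted p under 0.05, 0 in DESeq2 and edgeR). Sall1 had a log2 fold change of 0.20 and Sall2 of -0.05, near the 0.00 of Sall4.

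The partners of LIN28 and SALL4 were measured with the same fit. Of 8 genes for microRNA processing 0 were called (1 at an unadjusted p under 0.05, 0 in DESeq2 and edgeR). Drosha, the nuclease that releases precursors, had a log2 fold change of -0.29 at a limma adjusted p of 0.163 and Zcchc11, the uridylyl transferase that LIN28A brings to let-7 precursors, of 0.13 (0.583). Of 12 genes known as LIN28 or let-7 targets 2 were called, both lower: Mycn, given above, and Ccnd1 (cyclin D1), which fell from 2882 ± 248 to 2015 ± 99.9 normalized counts (SD, n = 3; log2 fold change -0.51, limma adjusted p 0.0107). The let-7 seed match was present in 10 of these 12 3′ UTRs, and the 2 genes without it were Mycn and Ccnd1. Only this match was searched, in the longest annotated 3′ UTR, so its absence does not mean that a gene lacks a let-7 site. None of the 10 with a match was called by limma or edgeR, while DESeq2 called 3 of the 12, the third being Arid3b, which has 1 match (limma log2 fold change of -0.33, adjusted p of 0.0749; named after its values were seen). Over 1318 tested genes with a match the median log2 fold change was 0.02, and it was -0.01 over the tested genes without one. The let-7 microRNAs were not measured in these mRNA libraries, and what part let-7 has in these values was not tested. Of 11 subunits of NuRD 0 were called (3 at an unadjusted p under 0.05, 0 in DESeq2 and edgeR), and Chd4 and Rbbp7, the most abundant, had log2 fold changes of -0.12 and 0.06.

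**Figure D5:**
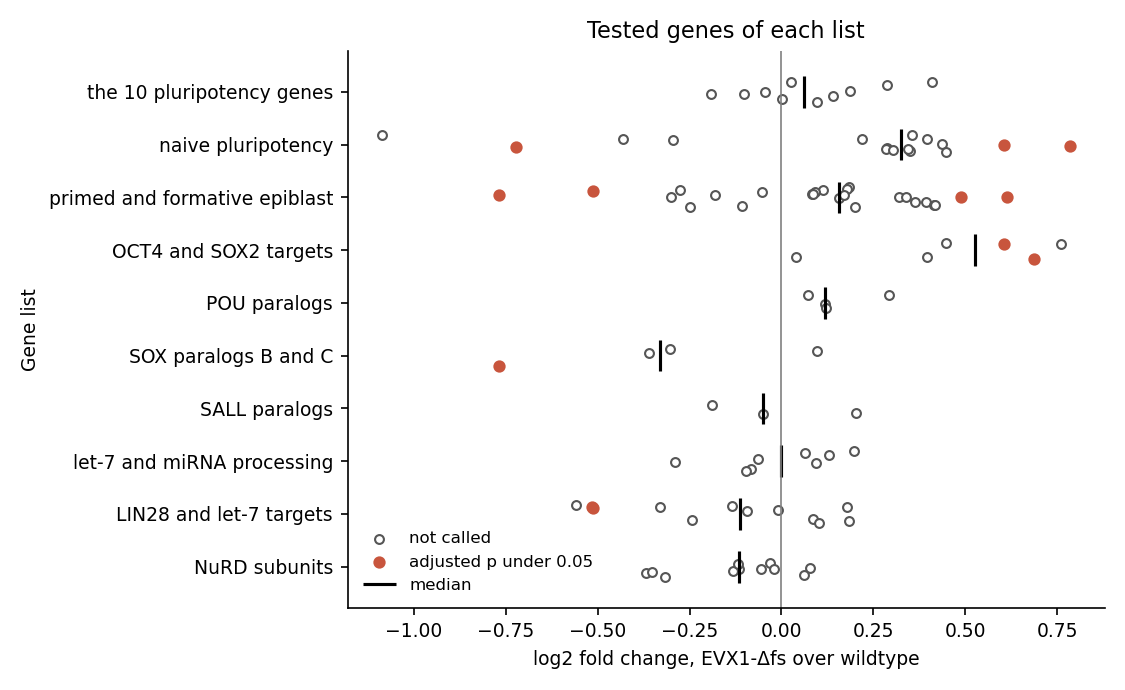
The log2 fold change of each tested gene in the 10 pluripotency genes and in each network list, with filled red points for genes called at an adjusted p under 0.05, open points for the others and a black line at the list's median. The 10 pluripotency genes centre on 0.06 with no filled point, and the listed targets of POU5F1 and SOX2 lie between 0.04 and 0.76 with a median of 0.53.

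Markers of other cell types that an EB may hold were set beside these values, since in bulk EBs fewer cells of a type and less RNA per cell cannot be told apart. Of 9 posterior mesoderm markers all 9 were called lower in EVX1-Δfs EBs, with a median log2 fold change of -0.91, and their summed level was 12931 to 14260 normalized counts in wildtype, against 6846 to 8477 in EVX1-Δfs libraries. T, Hand1 and Kdr, the most abundant of them, had log2 fold changes of -0.58, -1.28 and -0.91, and 7 of the 9 kept their call with the replicate block (T had a limma adjusted p of 0.0566). Many of these genes were picked by the study on these samples, so their direction is not independent evidence. Of 6 endoderm markers 5 were tested and 3 were called higher, Foxa2 and Cer1 among them (log2 fold changes of 1.09 and 3.49). The 2 not called were below 0, Gsc at -0.29 and Hhex at -0.57 (limma adjusted p of 0.413 and 0.129). Hhex was named after its values were seen. With the block 1 of the 3 calls was left. The study names Foxa2 and Cer1 as raised on these samples, so their direction is not independent evidence either. Of 10 neurectoderm markers 2 passed the filter and 0 were called (1 at an unadjusted p under 0.05, 0 in DESeq2 and edgeR). Their sum, 2043 to 2686 in wildtype and 2297 to 2498 in EVX1-Δfs, was nearly all Nes, with a log2 fold change of 0.00. Pax6, a transcription factor of the neural plate and eye field, had 3.83, 7.96 and 11.5 normalized counts in wildtype replicates 1 to 3 and 14.9, 16.9 and 27.6 in those of EVX1-Δfs. Every EVX1-Δfs library was above every wildtype library, as for 12.2% of all genes tested. The log2 fold change of Pax6 was 1.31 (limma adjusted p of 0.0803). Pax6 passed the filter through its EVX1-Δfs libraries, since in wildtype only replicate 3 reached 10 normalized counts. Its separation and fold change are therefore tied to the filter and rest on few reads. The other 8 markers did not pass the filter, with Lhx2 at 3.73 to 11.5, Sox1 at 0.934 to 4.76 and Six3 at most 1.13, and what part neurectoderm has in the Sox2 values was not tested. Of 10 germ cell markers 9 were tested and 0 were called (2 at an unadjusted p under 0.05, 0 in DESeq2 and edgeR), with Ifitm3, Kit and Tfap2c at 0.10, 0.35 and -0.05. Of 9 visceral endoderm markers 4 were tested and 0 called (2 at an unadjusted p under 0.05, 0 in DESeq2 and edgeR), with Gata6, Gata4 and Dab2 at -0.38, -0.38 and 0.21, while Afp, Ttr, Apoa1 and Apoa4 were too low to test. Of 6 extraembryonic ectoderm markers 5 were tested and 2, Cdx2 and Eomes, both also mesodermal, were called lower (log2 fold changes of -0.70 and -0.50). Esrrb was at 0.44 (limma adjusted p of 0.0544). With the block Cdx2 kept its call and Eomes did not (limma adjusted p of 0.0207 and 0.0586). The study names Cdx2 and Eomes as lowered on these samples, so their direction is not independent evidence. What part the lower levels of mesoderm markers have in the values of Sox2 and of the listed POU5F1 and SOX2 targets was not tested.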

How the data were processed

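RNA-seq was measured in 6 libraries of day 4 EBs, 3 wildtype and 3 EVX1-Δfs, grouped by the sample titles. mRNA libraries were read on an Ion Proton. As the methods state, the authors aligned reads to mm9 (TopHat2, followed by TMAP), and HTSeq gave counts per gene (versions and annotation not given in the sources used here). The deposited values are a signal, counts divided by the authors by 1 factor per library: 100% of values were whole multiples of the library's smallest step (within 0.01), which gave back the reads. limma (3.58.1, mean-variance trend) was fitted to log2(value + 1) for 13136 genes at 10 or more normalized counts in 3 or more libraries. DESeq2 (1.42.0) and edgeR (4.0.16) on recovered reads, other pseudocounts, scalings and filters, voom, fits without 1 library, the replicate number as a block, and removal of per-library trends on exonic GC content and length (splines with 5 degrees of freedom, in R 4.3.3) were alternatives. The fits were also run on simulated counts, with planted changes larger than those of the 10 genes and no GC or day effect. The simulation therefore does not tell how well changes of the size seen in these genes are found. GENCODE vM1 on NCBIM37 matched 94.0% of the symbols.

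The design text ties each replicate to a day shared by both genotypes, so the replicate number was taken to pair libraries. Correlations of their deviations from group means were 0.111, 0.00933 and -0.101 for replicates 1, 2 and 3.

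The 10 genes and all lists were chosen with earlier results of these data known. Named beside the 10 genes were the called genes of each network list, the 2 most abundant of a list with fewer than 2 calls, up to 3 abundant genes of each marker list, and the 3 genes most like Pou5f1. The values of 1 gene that this rule names are not reported here.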

Additional observations from a re-analysis of the deposited data

How the results depend on the processing

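Counts of called genes depended on the setting, and the cause was not tested. Against 273 genes higher and 387 lower in EVX1-Δfs EBs (limma), the fit with the replicate block called 76 and 146, taking out GC and length trends 98 and 180, both together 66 and 129, and DESeq2 with the replicate block 77 and 207. Leaving out 1 library gave 77 to 332 higher and 138 to 355 lower, with both counts over 1.5 times below the full fit without EVX1-Δfs replicate 1 (89 and 138), EVX1-Δfs replicate 3 (77 and 142) or wildtype replicate 3 (133 and 240). Of the 10 pluripotency genes 0 were called lower in any setting, and the count called higher was 1 in place of 0, always Sox2, with the GC and length trends removed, DESeq2, edgeR, upper-quartile scaling and voom, and 0 to 1 without 1 library (0 to 0 for lower). Against 5 network genes called higher, there was 1 with the block, 3 with the trends removed, 2 with both, 2 in DESeq2 with the block, and 8 were called in DESeq2, edgeR, upper-quartile scaling and voom (1 to 10 without 1 library, the most without wildtype replicate 3). Against 4 called lower the counts were 2 in either fit without the trends and 2 to 3 without 1 library.

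Of 180 alternative values of the 10 genes 162 kept direction and side of the threshold, 6 passed it (Sox2) and 12 reversed. In both fits without the trends (blocked or not) Pou5f1 was 0.0757, Lin28b -0.0186, Sall2 0.0238, Zcchc11 -0.174, Rbbp7 -0.0804 and Tfap2c 0.0249 on the log2 scale, and Nes was -0.00707 in DESeq2. Without 1 library, values spanned 0 for Pou5f1 (-0.223 to 0.176), Sall4 (-0.0614 to 0.0886), Utf1 (-0.155 to 0.199), Pou3f1 (-0.0719 to 0.204), Pou6f1 (-0.105 to 0.277), Sox11 (-0.0713 to 0.223), Tfap2c (-0.162 to 0.086), Nes (-0.118 to 0.0787) and Gsc (-0.463 to 0.0296). Adjusted p for Sox2 ranged from 0.0308 to 0.257 over its alternatives. Depth limited Dppa4 and Lin28b most, with counting errors of up to 8.28% and 7.67%, and 3 libraries per genotype and 1 clone limit every comparison. The paired test of the 2 gene ratios was chosen after seeing the data.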
